A study of Mus musculus with 48 samples.

Results

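The comparison is between intermediate progenitor cells (IPC) and neural stem cells (NSC) of the mouse somatosensory cortex on embryonic day 14 (E14), read by the regulatory activity of short DNA elements in a massively parallel reporter assay. All 10550 elements that had a value in both cell types at E14 were included, of 10713 in the deposited table, together with 990 of its 996 Scrambled controls. In this assay each element is cloned into a reporter plasmid, and the RNA it drives is set against the plasmid DNA that reached the cells. C57BL/6JRj embryos received the library by in utero electroporation on E13, and cortices were taken 24 h later. Dissociated cells were fixed, stained for Pax6, Eomes (Tbr2) and Tubb3, and sorted into Pax6+ cells (NSC) and Tbr2+ cells (IPC). Each cell type had 3 biological samples at E14, and every sample gave a DNA and an RNA library. Those are 12 of the 48 libraries of the series, which also covers E13, E15, E16 and E17.

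The deposited table merges the biological samples of a group into a single value per element. The spread between embryos or samples is therefore unknown, no test across samples was possible, and every standard error (SE) below is over elements. Read depth is unknown, and the table holds no RNA of cellular genes, so the sort could not be checked against marker genes.

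Neural stem cells of the embryonic cortex (radial glia) line the ventricle, express the transcription factor Pax6 and divide to renew themselves. Many of their daughters become intermediate progenitors, which switch on Eomes, move to the subventricular zone and divide to give neurons. Notch signalling, through effectors such as Hes1, keeps cells in the stem cell state, and proneural factors of the Neurog and Neurod families act in the opposite direction. Enhancers are stretches of DNA that raise transcription of a gene, often in particular cell types only, and a reporter assay asks whether such a stretch does so away from its own chromosome.

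Elements carry a class name in the table: NSC (3125 elements), IPC (2991), Mature (2763), E14 (931) and Shadow (903). No source used here says what these names mean. The class called E14 shares its name with the age and is written "E14 class" throughout. Only names of the E14 and Shadow classes hold coordinates. The authors' activity value, named statistic, is a linear score without a stated unit, and its Scrambled median was 0.537 in NSC and 1.59 in IPC. Each value was therefore divided by the Scrambled median of its own column, and activity below is log2 of that ratio plus a pseudocount of 0.1, less the Scrambled mean. Zero is the average Scrambled control, and 1 unit is a doubling before the pseudocount, which understates changes of weak elements. Differences are IPC minus NSC. An element was called higher in IPC or higher in NSC when its difference passed the limit that leaves 2.5% of Scrambled controls outside on that side (2.17 and -2.51). It was called active in a cell type when its activity passed the matching upper limit of that column (2.08 in NSC, 1.54 in IPC).

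No genome sequence was used here, but 23 elements of the E14 class overlapped promoter windows of RefSeq (GRCm38.p6, the assembly behind mm10), 15 of them with at least 150 bases before the transcription start. Of these, 4 are shown to give the letters behind contrasting readouts. Elements at Gm41399 and Arvcf (a catenin-family gene) had negative differences at E14, those at Bcan (brevican, an extracellular matrix proteoglycan) and Gm36756 positive ones. Of the 4, Bcan alone passed a difference limit. Each is printed 5′ to 3′ on the strand of the named gene, up to the start site and no further. Capitals mark CAGATG or CAGCTG (E-box letters bound by proneural factors), TAATTA (homeodomain), ACAAAG (Sox) and TTGGC (NFI), on either strand.
Gm41399 (chr15:99040986-99041230, plus strand): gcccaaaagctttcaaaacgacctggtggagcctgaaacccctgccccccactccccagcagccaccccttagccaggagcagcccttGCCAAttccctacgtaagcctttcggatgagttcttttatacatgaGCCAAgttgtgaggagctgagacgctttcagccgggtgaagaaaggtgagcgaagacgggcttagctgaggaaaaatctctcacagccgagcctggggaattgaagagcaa
Arvcf (chr16:18380560-18380782, plus strand): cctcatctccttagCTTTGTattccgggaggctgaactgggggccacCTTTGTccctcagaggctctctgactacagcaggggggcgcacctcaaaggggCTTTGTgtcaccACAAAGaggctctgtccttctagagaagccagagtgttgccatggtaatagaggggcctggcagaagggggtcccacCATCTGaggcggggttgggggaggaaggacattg
Bcan (chr3:88000357-88000563, minus strand): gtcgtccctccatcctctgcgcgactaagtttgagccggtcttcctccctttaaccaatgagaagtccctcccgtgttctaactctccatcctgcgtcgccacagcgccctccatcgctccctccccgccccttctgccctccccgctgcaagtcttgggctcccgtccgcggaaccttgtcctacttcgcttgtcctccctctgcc
Gm36756 (chr12:100986454-100986628, plus strand): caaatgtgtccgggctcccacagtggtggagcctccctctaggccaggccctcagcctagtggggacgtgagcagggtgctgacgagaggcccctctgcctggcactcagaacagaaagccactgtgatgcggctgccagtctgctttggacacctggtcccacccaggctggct

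The Gm41399 element, whose nearest protein-coding gene is the tubulin gene Tuba1c at 2.86 kb, had an activity of 1.95 in NSC and -0.49 in IPC at E14. Its difference of -2.45 stood just inside the limit, and was -3.05 at E15, -3.25 at E16, -2.06 at E17 and 0.15 at E13. The NSC excess was thus seen at 3 of the 4 other ages. The Arvcf element was active in NSC (2.23) and read 0.85 in IPC, for a difference of -1.38, but at the other 4 ages the difference had the opposite sign (0.19 to 1.82). The sequence holds ACAAAG 4 times and CAGATG once. For comparison, 14.7% of all promoter windows hold ACAAAG over the same offsets. The Bcan element read -3.41 in NSC and 0.98 in IPC. Its difference of 4.39 came from a statistic near 0 in NSC and not from activity in IPC, and its values were missing at the other ages in 1 or both cell types. The Gm36756 element, inside Ccdc88c, read -0.03 in NSC and 1.54 in IPC, just past the IPC limit, and its difference too could not be computed at the other ages, for missing values. Neither Bcan nor Gm36756 holds a marked motif, which says only that those letters are missing from these windows. GC content was 54.7%, 58.3%, 62.3% and 64.0% in the order printed.

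At the level of classes, elements of the NSC class drove more RNA in NSC and elements of the IPC class more in IPC. The NSC class (3087 elements with both values) averaged 0.27 ± 0.02 (SE) in NSC and 0.02 ± 0.02 in IPC, which gives -0.26 ± 0.02 for IPC minus NSC. The IPC class (2943 elements) averaged 0.10 ± 0.02 in NSC and 0.18 ± 0.02 in IPC, which gives 0.08 ± 0.02. The order of the classes therefore turned round between the cell types. NSC-class minus IPC-class activity was 0.18 ± 0.03 in NSC and -0.16 ± 0.02 in IPC, a change of -0.34 ± 0.03. This change does not depend on where the Scrambled zero lies, since both classes are read against the same controls.

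The E14 class (926 elements) had the highest class mean in both cell types, 0.29 ± 0.03 in NSC and 0.41 ± 0.04 in IPC, and a difference of 0.12 ± 0.05. Mature elements lay near the controls on both sides (0.02 ± 0.02 and 0.01 ± 0.02, difference -0.01 ± 0.03), as did Shadow elements (0.01 ± 0.03 and 0.07 ± 0.03, difference 0.06 ± 0.04). Differences of a single class also carry the error of the 990 controls. With it included, the NSC class differed from Scrambled by -0.26 ± 0.04, the IPC class by 0.08 ± 0.04 and the E14 class by 0.12 ± 0.06. The offset of the NSC class is many times its error, while those of the IPC and E14 classes are no more than about 2 times theirs. With medians in place of means the E14 class difference was 0.04 against the Scrambled median, so the typical element of the class differed less than the class mean.

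Set beside the other ages, the NSC class difference was -0.04 ± 0.04 at E13, -0.25 ± 0.03 at E15, -0.23 ± 0.03 at E16 and -0.19 ± 0.02 at E17. That at E14 lay within an SE of those at E15 and E16. The IPC class difference was lowest at E14 to E16 (0.06 to 0.08) and was 0.19 ± 0.04 at E13 and 0.21 ± 0.03 at E17. The E14 class difference was 0.19 ± 0.07 at E13, 0.04 ± 0.05 at E15, 0.10 ± 0.06 at E16 and 0.12 ± 0.05 at E17. The E14 class difference at E14 thus lay within the range of those at the other ages.

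Names of NSC, IPC and Mature elements also carry the labels asc, desc or unc, which the sources used here do not define. In the NSC class, NSC activity was lowest for asc elements (0.16 ± 0.03), intermediate for desc (0.29 ± 0.03) and highest for unc (0.39 ± 0.04). The gap between asc and desc was -0.13 ± 0.04 and that between asc and unc -0.23 ± 0.05. In IPC the same 3 groups were all at or below 0.06 and did not separate beyond their errors. Their IPC minus NSC differences were -0.16 ± 0.03, -0.29 ± 0.04 and -0.34 ± 0.05, with asc minus desc at 0.14 ± 0.05. The labels thus separated the class in NSC, and not measurably in IPC.

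In the IPC class the unc elements again had the highest level in their own cell type, 0.27 ± 0.03 in IPC against 0.14 ± 0.03 for asc and 0.12 ± 0.03 for desc. Their NSC levels lay between 0.07 and 0.12. The difference was 0.15 ± 0.04 for unc, 0.07 ± 0.05 for asc and 0.02 ± 0.04 for desc, and asc and desc could not be told apart (0.04 ± 0.06). In the Mature class the labels differed by less than 2 SE in either cell type, and asc minus desc in the difference was -0.09 ± 0.09.

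Of single elements, 404 of 10550 were higher in IPC (3.83%) and 395 were higher in NSC (3.74%), where the limits put 2.5% of Scrambled controls on either side. Both shares thus lie little above that of the controls, so most single calls cannot be told from the scatter of a control. The E14 class stood apart in the IPC direction, with 59 of 926 elements (6.37%, 95% Wilson interval 4.97 to 8.13%) against 30 in the NSC direction (3.24%). The NSC class leaned the other way, with 145 elements higher in NSC (4.70%, 4.01 to 5.50%) and 89 higher in IPC (2.88%, 2.35 to 3.53%). At limits with 0.5% of controls outside, this order turned, with 29 higher in NSC and 35 higher in IPC. IPC class elements split into 112 higher in IPC and 85 higher in NSC, Mature elements into 110 and 108, and Shadow elements into 34 and 27. Intervals cover the sampling of elements only and leave out the error of the limits.

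A difference can pass the limit through activity in the higher cell type or through a very low value in the lower one. Elements that were both higher in IPC and active in IPC numbered 231 (2.19%), and those both higher in NSC and active in NSC 236 (2.24%). In the E14 class, 49 of the 59 elements higher in IPC were active there, whereas over all classes 231 of 404 were. Of the 404 elements higher in IPC, 119 were below the lower Scrambled limit in NSC, and of the 395 higher in NSC, 114 were below that in IPC.

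By the Scrambled limits, activity in IPC was commoner than in NSC in the classes named E14 and IPC. Over all classes 428 elements were active in NSC (4.06%) and 611 in IPC (5.79%). The E14 class reached 14.9% in IPC (138 elements, 12.8 to 17.3%) and 5.83% in NSC (54 elements, 4.50 to 7.53%). The IPC class had 7.27% active in IPC and 2.82% in NSC, while the NSC class had 3.30% in IPC and 5.12% in NSC. Mature (4.41% and 3.74%) and Shadow elements (4.26% and 3.58%) had overlapping intervals in the 2 cell types. Of these elements, 43 were active in both cell types, 568 in IPC alone and 385 in NSC alone. By the authors' deposited adjusted p-value under 0.05, 14.6% of elements passed in NSC and 11.2% in IPC, but so did 9.80% and 6.67% of the Scrambled controls. Over all classes that deposited p-value therefore gives more calls in NSC, and the Scrambled limits more calls in IPC. By that p-value the E14 class had 17.6% in NSC (15.3 to 20.2%) and 23.8% in IPC (21.1 to 26.6%). The IPC class had 12.9% (11.8 to 14.2%) and 13.8% (12.6 to 15.1%), so its intervals overlapped.

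Across all 10550 elements the activities in the 2 cell types at E14 had a Spearman's rho of 0.11. Within a cell type, E14 correlated with the other ages at a like level, at 0.07 to 0.13 in NSC and 0.05 to 0.13 in IPC. Repeats at the same age are merged, so their correlation is unknown. In the E14 class the 2 cell types had 0.10 at E14. Within a cell type, that class had 0.09 to 0.21 between E14 and the other ages in NSC, and 0.14 to 0.32 in IPC. Among Scrambled controls the 2 cell types had 0.06. Elements share libraries and controls, so the values are a description.

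Other ages give a reading of the same elements in columns that played no part in an E14 call. Those columns merge 2 biological samples per cell type at E13, E16 and E17, and 3 at E15. Elements of the E14 class that were active in IPC at E14 stayed more active in IPC than in NSC at other ages. Averaged over E13, E15, E16 and E17, 137 of them read 1.29 in IPC and 0.37 in NSC. Their difference was 0.92 ± 0.09, and it was above 0 for 83.2% of them. The whole E14 class had a difference of 0.11 ± 0.03 there, above 0 for 55.5% of elements. At E13, 67 of 137 were active in IPC (48.9%, against 11.5% of the class), and 4 of 136 were active in NSC (2.94%, against 4.30%). The share active in IPC was 16.1% at E15, 6.72% at E16 and 18.4% at E17, where that of the class was 5.32%, 7.17% and 10.2%. At E16 the share active was thus no higher than that of the class, although their mean activity was 0.91 ± 0.12 against 0.43. E13, a day earlier, was the age at which these elements most often repeated.

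IPC-class elements active in IPC at E14 also kept an IPC excess at other ages (213 elements, 0.66 in IPC and 0.17 in NSC, difference 0.50 ± 0.07, class 0.13). In the other classes no such excess was measured. Elements active in IPC at E14 had a mean difference at other ages of -0.29 ± 0.10 in the NSC class, -0.14 ± 0.09 in the Mature class, 0.20 ± 0.19 in the Shadow class and -0.12 ± 0.22 among Scrambled controls. Calls of activity in IPC did recur above the class share in the Shadow class (5.88 to 12.9% against 3.39 to 5.52%) and the NSC class (6.06 to 8.08% against 2.81 to 5.60%), as among the 25 Scrambled controls active in IPC (4.00 to 12.5%). The Shadow shares rest on 2 to 4 elements at each age. Those NSC-class elements were also active in NSC above the class share (6.19 to 14.1% against 3.42 to 10.2%), so the recurrence was not particular to IPC. Differences between classes were not tested.

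On the NSC side the excess at other ages was smaller in size. The 54 E14-class elements active in NSC averaged 0.79 in NSC and 0.48 in IPC at other ages, a difference of -0.31 ± 0.15. The 25 Scrambled controls active in NSC had -0.35 ± 0.16, so the E14-class value cannot be told from that of controls chosen in the same way. The level of the E14-class elements in NSC was nonetheless above that of the controls (-0.05). Their share active in NSC was 17.3% at E13, 9.43% at E15, 12.96% at E16 and 26.4% at E17. That of the class was 4.30%, 3.37%, 4.27% and 10.7%. Their share active in IPC was 9.43%, 11.5%, 18.0% and 11.5% at the same ages, where the class had 11.5%, 5.32%, 7.17% and 10.2%. At E15 and E16 the share active was thus higher in IPC than in NSC, so the recurrence was not particular to NSC at those ages. NSC-class elements active in NSC had a difference of -0.21 ± 0.10, little different from their class (-0.17 ± 0.02).

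Calls on the difference itself were followed in the same way. Elements past the upper limit made up 3.63% of elements at E13, 2.87% at E15, 4.54% at E16 and 4.60% at E17. Those past the lower limit made up 2.83%, 3.57%, 4.11% and 3.28%. Over all classes, elements higher in IPC at E14 gave 1449 values at other ages, of which 115 lay beyond the limit on the same side (7.94%) and 101 on the opposite side (6.97%). Elements higher in NSC gave 105 on the same side and 131 on the opposite side of 1374. Scatter to both sides was thus above the share over all elements, and the direction at E14 was hardly kept. Scrambled controls past the upper limit at E14 gave 6 values on the same side and 7 on the opposite side of 97 (6.19% and 7.22%). Controls past the lower limit gave 6 and 2 of 88 (6.82% and 2.27%). Apart from the 2.27%, these shares lie near those of the called elements. Elements higher in IPC kept to the same side more often in the E14 class, with 23 values on the same side and 9 on the opposite side of 229, and in the IPC class, with 32 and 17 of 414. With activity in IPC also required, the counts were 20 and 6 of 193 and 21 and 9 of 269. E14-class elements that were higher and active in NSC gave 9 and 10 of 87. As a description over elements that share libraries, the E14 differences correlated with those at E13 with a Spearman's rho of 0.25 in the E14 class, 0.09 in the IPC class and 0.04 in the NSC class. At E15, E16 and E17 the values were 0.21, 0.08 and 0.18 in the E14 class and at most 0.06 in the IPC class.

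Called elements also lacked values elsewhere more often. A difference was missing at 1 or more of the other 4 ages for 24.3% of elements higher in IPC and 29.1% of those higher in NSC, against 4.63% of elements between the limits. For E14-class elements higher in IPC the share was 6.78%. The part of thin coverage in these calls was not tested, as no counts were used here.

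Single E14-class elements show what the repeat consists of. Of 48 that were higher and active in IPC (chromosome 18 left out), 45 had a difference at all 4 other ages. In 14 of these it was positive at all 4, and 6 of the 14 lay inside a gene. Of 23 that were higher and active in NSC, 19 had a difference at all 4, and 3 of these kept their sign. Age by age, 51.4 to 54.8% of all E14-class elements had a positive difference and 45.2 to 48.6% a negative one. The share of the whole class with 1 sign at all 4 ages was not computed, so neither count has a background. These subsets were chosen after their values had been seen and are given as a description. In the 14, NSC activity at E14 ran from -0.86 to 0.64, within the Scrambled limits, and IPC activity from 1.83 to 3.13.

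The element inside Dpysl5 (chr5:30738107-30738372), which encodes a collapsin response mediator protein of growing neurites, read 0.38 in NSC and 3.13 in IPC at E14. In IPC it read 4.78 at E13, 2.70 at E15, 1.20 at E16 and 1.64 at E17, and in NSC between 0.07 and 1.04. IPC was higher at every age, by 4.27 at E13 and by 0.17 at E16. The element inside Shroom3 (chr5:92949457-92949722), an actin regulator of apical cell shape, read 0.18 in NSC and 2.85 in IPC at E14. Its difference was 3.29 at E13, 0.10 at E16 and 2.52 at E17, and positive at E15 too. The element inside Cacna1s (chr1:136103013-136103278), a calcium channel gene known from muscle, read -0.86 and 1.83 at E14, a difference of 2.70, and reached 6.26 at E13. In these 3 the difference at E13 was larger in size than at E14, but E13 scatters more, with an upper limit of 3.59. The 3.29 of the Shroom3 element at E13 is inside that limit.

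A second element at Slc39a11, a zinc transporter gene (chr11:113467328-113467593), read -0.26 in NSC and 2.62 in IPC at E14. Its differences of 3.19, 1.32, 2.10 and 1.89 at E13, E15, E16 and E17 all kept their sign. One element assigned to Sox11, a transcription factor of immature neurons, lay 495.8 kb away (chr12:27838484-27838749) and read 0.14 in NSC and 2.35 in IPC. It differed by 2.22 at E14, 2.58 at E13, 1.86 at E15, 0.17 at E16 and 0.67 at E17. The remaining 9 were assigned to Plekhf2, Cfdp1, Prmt6, Efcab6, Ust, 1700015G11Rik, Rasgef1b, Shc2 and Mcee. Over all 14 the mean difference at other ages ran from 1.18 to 2.52, and 5 passed a limit at 1 or more other ages. The nearest gene is a position and not a shown target.

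On the NSC side, the element 10.6 kb from Arhgef26 (chr3:62327956-62328221), a guanine nucleotide exchange factor gene, read 3.06 in NSC and -0.01 in IPC at E14. Its difference was -3.07 at E14, -0.94 at E13, -1.04 at E15, -2.45 at E16 and -1.35 at E17. The other 2 with a constant sign lay inside Akt1, a growth-signal kinase gene (-2.82 at E14), and 16.04 kb from Tead1, a transcription factor of the Hippo pathway (-2.60 at E14). One further element, inside Git2 (chr5:114753372-114753637), read 2.29 in NSC and -0.88 in IPC and passed the lower limit at E13 (-4.13) and E15 (-3.18). Its difference was -0.58 at E16 and 0.54 at E17.

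Among the largest differences at E14 about as many values at other ages kept their sign as did not. Named by size among elements with coordinates, past a limit and with the authors' deposited adjusted p under 0.05 in the higher cell type, the 10 highest in IPC ran from 4.01 to 7.05. The 10 highest in NSC ran from -4.08 to -9.69. In the lower cell type the statistic was 0.022 to 0.745 times the Scrambled median in the first set. In the second set it was 0.00309 to 0.882 times that median. Shadow elements made up 7 of the 10 and 6 of the 10, and no element of the 20 kept its sign at all 4 other ages. Of the values at other ages, 15 of 33 had the same sign in the first set and 17 of 28 in the second. A value was missing at 1 or more other ages for 5 and 6 of them, which could therefore not keep their sign at all 4. The Shadow element near Id4 kept it at all 3 ages with a value.

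The first of the IPC set, another E14-class element inside Slc39a11 (chr11:113308592-113308857), read -1.68 in NSC and 5.37 in IPC, 44.3 times the Scrambled median. At E13 it read 0.54 in NSC and 6.83 in IPC, for a difference of 6.30, and then -2.19 at E15, -0.29 at E16 and -1.92 at E17. Its IPC value was thus high at E13 and E14 and near the controls afterwards. The E14-class element inside Cyria, a regulator of actin branching (chr12:12274163-12274428), read -1.41 and 3.17. It was also higher in IPC at E13 (2.22), E15 (3.05) and E16 (2.09), and lower at E17 (-2.13). Of the 3 E14-class elements in the set it repeated most often.

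In the NSC set the extreme was the E14-class element inside Trak1, an adaptor for mitochondrial transport (chr9:121398100-121398365), at 6.34 in NSC and -3.35 in IPC. That is 92.2 times the Scrambled median in NSC, and no other age had both values. The element 50.3 kb from Nectin3, a cell adhesion gene (chr16:46548785-46549050), read 4.51 in NSC and -1.94 in IPC at E14, but its NSC activity at other ages lay between -2.11 and 0.40. The element 94.9 kb from Mrpl39 (chr16:84623141-84623406) read 4.78 and -0.27 at E14 and -4.39 in difference at E15, yet 5.27 at E16. An NSC excess at E14 was thus followed by both signs.

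At Dscam, a neuronal adhesion gene, the E14-class element and the Shadow element with the same coordinates (chr16:96843751-96844016) were both named, with opposite signs. The former read -1.03 in NSC and 2.97 in IPC (difference 4.01), the latter 4.56 in NSC and -0.13 in IPC (difference -4.70). Their sequences were not analysed here. A pair of Shadow elements inside Slc17a6, a vesicular glutamate transporter gene, were named on opposite sides too (4.08 and -5.43).

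A further 5 elements were named for the highest value in their weaker cell type. The highest of them was a Shadow element 48.2 kb from Evx1, with 5.85 in NSC and 4.45 in IPC, and its differences at E15 and E17 were -4.21 and 2.37. The E14-class element inside Ina (an intermediate filament of neurons; chr19:47015983-47016248) was the most even, with 2.82 in NSC and 2.84 in IPC. The others lay at Syn2 (2.76 and 4.05), Ccn4 (2.29 and 2.81) and Gm829 (4.19 and 2.23). Shared activity at E14 was not constant either, since the Ina element read between -1.45 and 2.14 in NSC at other ages.

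For 829 coordinates both an E14-class and a Shadow element had values. The E14-class member was higher by 0.27 ± 0.05 (SE over pairs) in NSC and by 0.35 ± 0.05 in IPC, and it was the higher one in 58.9% and 60.9% of pairs. The excess was not measurably larger in IPC than in NSC (0.08 ± 0.07). Of 127 pairs whose E14-class member was active in IPC (mean 2.23), the Shadow partner averaged 0.12 ± 0.07 in IPC and 4 were active there. Of 46 pairs with a member active in NSC (mean 2.81), the partner averaged 0.03 ± 0.14 in NSC and 1 was active there. These are 3.15% and 2.17% of pairs, where the whole Shadow class had 4.26% active in IPC and 3.58% in NSC. Partners of active members were thus active no more often than Shadow elements at large. The members were chosen for high values in these same columns, so the gap to their partners is partly set by that choice.

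Elements were also grouped by the protein-coding gene that holds them or lies nearest, for 4 lists of genes. Among all 926 E14-class elements the median difference was 0.12, and 497 had a difference above 0. The 21 elements at 13 neural stem cell genes had a median of -0.49, with 7 above 0, a median activity of 0.63 in NSC and -0.09 in IPC. The element 63.8 kb from Hes1, the Notch effector, read 2.95 in NSC and -0.29 in IPC and was the single one in the list higher in NSC beyond the limit (-3.24), but it had the same sign at 1 of the 4 other ages. At Sox2, a stem cell factor, an element 214.7 kb away differed by -1.99 with the same sign at 0 of the 4 other ages, and one 90.8 kb away by -1.86 with the same sign at 3. Another, 426.1 kb away, differed by 0.30. Elements inside Pax6, a marker of the sort, were mixed, at -1.82, -0.81, 0.04, 0.65 and 1.20. The Pax6 element at 0.65 was active in IPC (1.82). The Prdm16 element, at a chromatin regulator of radial glia, read 0.49 and -1.64 (-2.13, same sign at 1 age). Against the median, the Fgfr2 element passed the upper limit (2.79) through a low NSC value of -2.37, since its IPC activity was 0.42. Of the 21, 1 passed each difference limit, where the whole class has 6.37% higher in IPC and 3.24% higher in NSC. In the list 3 elements were active in NSC and 3 in IPC, where the class has 5.83% and 14.9%. Among those active in IPC was that near Emx1, a cortical homeobox gene (0.63 and 2.19, difference 1.56, same sign at 3 ages).

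The 5 intermediate progenitor genes with an element had 5 elements in all, with a median difference of 0.50 and 3 differences above 0. Of the 5, 1 passed the upper limit, where the whole class has 6.37%. The element 4.6 kb from Mfng, a Fringe enzyme that modifies Notch, read -0.40 in NSC and 3.06 in IPC (3.46, same sign at 3 of 4 other ages). The element 1.74 kb from Eomes, the gene used to sort the cells, read -0.96 in NSC and 1.08 in IPC, for a difference of 2.04 that stayed within the limit. The elements at Nhlh1, a proneural helix-loop-helix gene, and Gadd45g differed by -1.06 and -0.67. With 5 elements the list's median is set by single values.

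The 15 elements at 7 neuronal genes were split almost evenly, with 8 differences above 0 and 7 below. Their median of 1.19 is the lowest of the positive values, and the next value down is -0.15, so it rests on 1 element. Of the 15, 3 were higher in IPC beyond the limit, 7 were active in IPC and 0 in NSC, where the whole class has 6.37%, 14.9% and 5.83%. Beside the Dpysl5 and Sox11 elements described above, the third was inside Rbfox3, the splicing factor known as NeuN (-0.80 and 1.78, difference 2.58, same sign at 2 of 4 other ages). An element 7.93 kb from Neurod2, a proneural factor, read -0.24 and 1.72, and one 326.9 kb from Sox11 read -0.20 and 1.75. Both had a positive difference at all 4 other ages. The remaining positive differences at E14 repeated less often. They were at Robo1 (1.70, same sign at 2 of 4 other ages) and Robo2 (1.19, at 3 of 4). The last, 441.6 kb from Pou3f3, differed by 1.65 and kept its sign at 0 of the 3 ages with a value. The element 11.3 kb from Pou3f3, a POU factor of upper-layer neurons, read 0.60 in NSC and -1.85 in IPC (difference -2.44). The other 6 below 0 lay at Pou3f3 (-1.05 and -0.81), Robo1 (-1.89), Robo2 (-1.43), Rbfox3 (-0.19) and Neurod2 (-0.15).

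The 10 elements at 4 temporal and gliogenic genes had a median of 0.47, with 6 above 0 and none beyond a limit. The largest differences were at Nfia (2.07, through -1.57 in NSC and 0.50 in IPC) and Olig2 (1.50). They kept their sign at 0 and 1 of the 4 other ages. The Hmga2 element was active in both cell types (2.73 in NSC and 2.09 in IPC) and is a member of the stem cell list too. The lists are small, and their medians are given beside that of all elements as a description only.

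The sets overlapped in position. Of E14-class elements higher and active in IPC, 60.4% lay inside a protein-coding gene (46.3 to 73.0%), as did 60.9% of those higher and active in NSC (40.8 to 77.8%) and 56.7% of all. The median distance to the nearest transcription start was 27.7 kb, 41.9 kb and 24.9 kb, and their middle ranges overlapped.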

How the data were processed

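The reporter DNA and RNA of NSC and IPC were measured in 3 biological samples per cell type at E14. The submitters' processing notes name cutadapt, without a version, and mm10. No source used here names the aligner, the barcode counting or the activity tool. Per the file headers, the deposited table gives, per cell type and age, an activity score (statistic), a MAD score and a p-value. The authors' deposited MAD score and p-value were recomputed from the statistic and matched. Samples were grouped by labelled cell type and collection age.

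Activities, limits and intervals were computed as given in the report with Python 3.11.15, numpy 2.4.6, pandas 2.3.3 and scipy 1.17.1. Functions were tested on simulated data. Elements lacking either value were left out. Genes came from GRCm38.p6 spans. Whether coordinates in names start from 0 or 1 is not given, so ends of printed sequences may differ by 1 base from the tested element. Elements were named by size, by the highest lower value, and by gene list, where up to 4 each were planned and more are described. Others were described for their printed sequence or their values at other ages. Chromosome 18 was left out of naming, and 1 named element is not reported here. The members and lists were chosen with earlier results of these data known. Alternatives covered the pseudocount, a filter on low values, medians, trimming, limits, the MAD score, ranks and the authors' p-value. Motif shares over all elements were not analysed here.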

Additional observations from a re-analysis of the deposited data

Results flagged for a closer look

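Of the 20 elements named for the largest differences, 6 had a difference of the opposite sign beyond the other Scrambled limit at another age. The same 20 gave 4 values in each direction beyond the limit on the same side, 8 in all, against 7 on the opposite side. Over all called elements the opposite side held 6.97% of values for those higher in IPC and 9.53% for those higher in NSC. Each value is from a column that merges samples, and the change between ages was not tested. The Shadow element near Vangl2 was higher in IPC at E14 (5.88) and read -3.53 at E15 and -3.78 at E16. The other 3 Shadow elements that were higher in IPC at E14 lay at Eapp, with -3.48 at E15, at Srrm4, with -3.18 at E16, and at Slc17a6, with -4.09 at E17. On the NSC side, the E14-class element near Mrpl39 went from -5.05 at E14 to 5.27 at E16. The E14-class element inside Stk39 went from -5.05 to 2.51 at E17.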

How the results depend on the processing

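No paired analysis was possible because each column merges the samples of a group, and for the same reason no replicate could be left out. The named elements past a limit did not change sign with either pseudocount, MAD scores or ranks, and 9 of the 25 named passed the filter on low values. These 9 include the elements named for the highest value in their weaker cell type. Most of those named for the largest differences therefore did not pass. With a pseudocount of 0.5 the NSC class difference was -0.20 and the change of the NSC to IPC class gap -0.26. With a filter on low values the Mature class difference was -0.0599 and the Shadow class difference -0.0298, and with medians the Shadow difference was -0.0244. The classes named NSC, IPC and E14 kept their direction under these settings, trimming and a pseudocount of 0.02. Asc minus desc in the IPC class, within its error, changed sign with the filter and with medians.

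Counts followed the limits. With 0.5% of Scrambled controls beyond each limit, 173 elements were higher in IPC, 82 were higher in NSC, 72 were active in NSC and 204 in IPC. With 5% the counts were 831, 711, 830 and 998. By the authors' deposited adjusted p, 1542 were active in NSC and 1185 in IPC. For E14-class elements active in IPC, the difference at other ages was 1.11 at the 0.5% limits, 0.69 at 5% and 0.66 by the authors' p. For those active in NSC it turned to 0.13 ± 0.42 at the 0.5% limits, which leave fewer elements.

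Shares of values at other ages beyond a limit moved as follows. At the 0.5% limits, elements higher in IPC gave 3.05% on the same side and 3.05% on the opposite side, and those higher in NSC 3.95% and 5.53%. E14-class elements higher in IPC gave 4.60% and 0.0%. At 5%, elements higher in IPC gave 11.7% and 9.45%, and those higher in NSC 12.4% on the same side. E14-class elements gave 15.7% on the same side in IPC and 17.2% in NSC. With the filter, elements higher in IPC gave 5.43% on the opposite side, and those higher in NSC 9.13% on the same and 7.58% on the opposite side. With a pseudocount of 0.5 the opposite share in NSC was 7.73%. By MAD scores the same-side share in IPC was 10.9% over all classes and 19.7% in the E14 class, and by ranks 5.29% in the E14 class. The order of opposite and same sides for elements higher in NSC therefore turned with the filter.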
